A study of Mus musculus with 9 samples.

Results

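The sarcoglycans and sarcospan of mouse left ventricle were examined as 5 genes, Sgcd, Sgca, Sgcb, Sgce and Sspn, taken by gene symbol from the 20634 genes of the deposited values. All 5 passed the filter on low counts that left 15549 genes for testing. RNA-seq had been carried out on 9 left ventricle samples of C57BL/6 mice aged 6 months, wild-type (WT) or knockout for delta-sarcoglycan (KO, titled dSG). Mice drank plain water (vehicle) or received ifetroban, an antagonist of the TP (thromboxane-prostanoid) receptor, in the water at 25 mg/kg/day from weaning. All groups had access to running wheels at intervals, given to bring out the cardiomyopathy. There were 3 libraries of KO ifetroban and 2 of each other group, and the question of the crossed design is what the genotype, the drug and their combination do to expression. Whether replicates are separate animals is not in the labels, and p-values therefore measure only the spread between these samples. KO ifetroban replicate 1 is ifetroban by title and source name but vehicle by its treatment characteristic, and was used as ifetroban.

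Total counts per library were 21510263 to 30182955, and levels are given as CPM, counts scaled to the size of the library with TMM factors. The libraries differed in how their values followed transcript length. Deviations from the mean over libraries fell with length in the library labelled WT vehicle replicate 1, in both KO vehicle libraries and in KO ifetroban replicate 1 (Spearman's rho -0.55 to -0.43, taken over 12127 genes that are no independent replicates). They rose with length in the other 5 libraries (0.42 to 0.46). These are called the negative-slope and positive-slope libraries. Both KO vehicle libraries are of negative slope and both WT ifetroban libraries of positive slope, so the slope cannot be told apart from the groups in comparisons of those 2 groups.

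The sarcoglycans are single-pass membrane glycoproteins that assemble into a tight subcomplex in the endoplasmic reticulum and travel together to the muscle cell membrane. There the subcomplex, with sarcospan, sits beside dystroglycan and dystrophin in the complex that ties the cytoskeleton to laminin in the extracellular matrix. In striated muscle the subcomplex holds the alpha, beta and delta subunits, among others. Epsilon-sarcoglycan is close in sequence to the alpha subunit, is made in many tissues and takes its place in smooth muscle. Sarcospan crosses the membrane several times, resembles the tetraspanins and depends on the sarcoglycans for its place at the membrane. Loss of the delta subunit removes the other subunits from the membrane at the protein level and causes muscular dystrophy with cardiomyopathy. Only transcripts were measured here.

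Positions are in mm10, and all 5 genes are protein-coding. Sgcd, the delta subunit, spans chromosome 11, 46896253 to 47988969, on the minus strand (1092.7 kb). Sgca, the alpha subunit, lies on the same chromosome and strand at 94962791 to 94976327. Sgcb, the beta subunit, lies on the minus strand of chromosome 5 at 73632749 to 73647790. Sgce, the epsilon subunit, lies on chromosome 6, 4674350 to 4747207, minus strand, and Sspn, sarcospan, on the plus strand of the same chromosome at 145931641 to 145965223. Genes that overlap them could take or lend reads, with strand in counting not given in the sources used here, but they held few: at most 2 counts in a library for Gm12176 within Sgcd, 1 for Hils1 within Sgca and 8 for Sspnos within Sspn. These lie on the opposite strand, while RP24-238C11.5, within Sspn on the same strand, held at most 6 counts. Of the 50-base words in the GENCODE M21 transcripts of the members, none was shared with another gene's transcripts for Sgcd, Sgca, Sgcb or Sgce, and 23 of 4923 (0.467%) were shared for Sspn, with Sspnos.

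Upstream sequence is shown for Sgca, Sgcb and Sspn, the members whose KO libraries all lay below all WT libraries. The sequences are from RefSeq (GRCm38.p6), written 5′ to 3′ on the strand of the gene, and hold only bases that precede annotated exons. Capitals mark an E-box (CANNTG) or a GC box (GGGCGG), searched on both strands. The Sgca sequence is chr11:94976328-94976577 on the minus strand, the Sgcb sequence chr5:73647791-73647987 on the minus strand, and the Sspn sequence, before the second of its RefSeq starts, chr6:145933872-145934121 on the plus strand.
Sgca: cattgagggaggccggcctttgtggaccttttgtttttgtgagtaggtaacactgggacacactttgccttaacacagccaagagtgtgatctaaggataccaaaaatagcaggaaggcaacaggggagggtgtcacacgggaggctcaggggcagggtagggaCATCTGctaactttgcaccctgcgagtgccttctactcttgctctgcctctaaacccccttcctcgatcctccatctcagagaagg
Sgcb: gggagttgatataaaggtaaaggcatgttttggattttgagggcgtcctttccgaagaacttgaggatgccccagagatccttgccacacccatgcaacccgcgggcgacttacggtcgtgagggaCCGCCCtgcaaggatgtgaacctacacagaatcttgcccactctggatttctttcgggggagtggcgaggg
Sspn: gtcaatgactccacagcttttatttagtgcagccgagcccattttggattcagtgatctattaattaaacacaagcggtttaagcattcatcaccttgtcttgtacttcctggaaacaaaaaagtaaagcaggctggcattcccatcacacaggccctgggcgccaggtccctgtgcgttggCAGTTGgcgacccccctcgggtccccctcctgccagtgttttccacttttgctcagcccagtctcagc
The Sgca and Sspn sequences each hold 1 E-box and no GC box, and the Sgcb sequence holds 1 GC box on its reverse strand and no E-box. Among 32536 RefSeq windows of 250 bases 66.2% hold an E-box and 33.0% a GC box. In windows of 197 bases, the length shown for Sgcb, these shares are 58.6% and 24.3%. No match to the MEF2 or the SRF (CArG) motif was found in the 3 sequences, against 2.89% and 1.48% of windows of 250 bases. The matches are a description of the letters, with binding not measured.

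Sgcd, the targeted gene, was measured first. It stood at 8.36 CPM in the library labelled WT vehicle replicate 1 and 20.9 CPM in WT vehicle replicate 2. In WT ifetroban it stood at 23.7 and 23.5 CPM. KO vehicle gave 9.64 and 8.63 CPM, while KO ifetroban gave 7.30, 12.9 and 13.3 CPM. The other 3 WT libraries lay above every KO library, and the library labelled WT vehicle replicate 1 lay inside the KO range. Transcripts of the gene were present in every KO library, from 156 to 407 counts. The labels do not say which exons the allele lacks, and a count over the whole gene includes any exons it keeps, so these values do not check the genotype labels.

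The mean of Sgcd was 10.4 ± 2.65 CPM in KO (SD, n = 5) and 19.1 ± 7.27 CPM in WT (SD, n = 4), which puts KO at 54.2% of WT. Over both treatments the log2 difference was -0.90 ± 0.25 (SE), which did not pass the threshold of 0.05 (edgeR, adjusted p = 0.101, every KO library below 3 of 4 WT libraries). When the library labelled WT vehicle replicate 1 was left out, the difference was -1.10 ± 0.17 and passed (edgeR, adjusted p = 0.0103), where 2.95% of tested genes passed. That library had the lowest Sgcd of the WT libraries, so leaving it out raised the WT mean. Over the fits that each left out 1 library, the difference ran from -1.10 to -0.70 (edgeR, adjusted p = 0.0103 to 0.304). DESeq2 on all libraries also called Sgcd (-0.90, adjusted p = 0.0116), with 5.77% of tested genes called. With the slope of the libraries as a term the difference was smaller, -0.50 ± 0.17 (edgeR, adjusted p = 0.145).

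Sgcd followed the slope of the libraries within groups too. The positive-slope library of WT vehicle lay 1.32 above the negative-slope one on the log2 scale, and in KO ifetroban the positive-slope libraries lay 0.84 above the negative-slope one. Among libraries of positive slope, KO ifetroban replicates 2 and 3 lay below both WT ifetroban libraries, with a log2 difference of -0.83 ± 0.11 (edgeR, adjusted p = 0.0365), where 0.386% of tested genes passed. Among libraries of negative slope, the KO vehicle libraries lay 0.13 above the WT library on the log2 scale, a value given without a test because that side holds 1 library. The slope as a term in the fit of all libraries gave -0.03 ± 0.16 under vehicle (edgeR, adjusted p = 0.956) and -0.78 ± 0.13 under ifetroban (edgeR, adjusted p = 0.0222). Only WT vehicle and KO ifetroban held libraries of both slopes, so that term rests on those groups. The share of tested genes that passed within each treatment in that fit was not counted. With all libraries, the log2 difference was -1.07 ± 0.34 under ifetroban, where the groups did not overlap (edgeR, adjusted p = 0.322), and -0.69 ± 0.39 under vehicle, where they did (edgeR, adjusted p = 0.749).

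**Figure D1:**
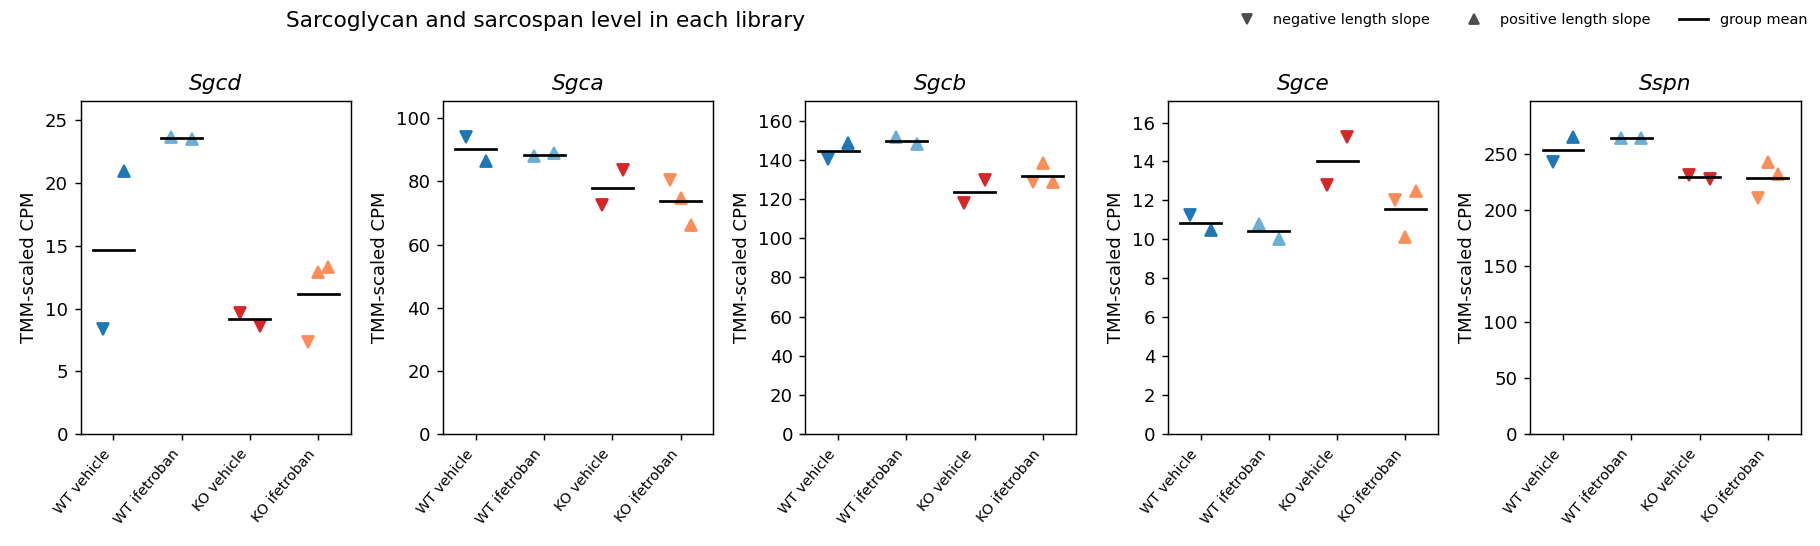
TMM-scaled CPM (vertical axes, linear from 0) of each member in each of the 9 libraries by group (horizontal axis), with a bar at the mean of the group. Triangles point up for positive-slope and down for negative-slope libraries. Sgcd in the library labelled WT vehicle replicate 1 (8.36 CPM) sits with the KO libraries, while Sgca, Sgcb and Sspn have every KO point below every WT point.

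The other 4 members differed less between genotypes. In KO, Sgca, Sgcb and Sspn stood at 84.4%, 87.5% and 88.4% of their WT means, and Sgce at 118%. None of the 5 members passed the threshold in KO against WT over both treatments (edgeR, 0 of 5 called), against 2.33% of all tested genes. With limma-voom 0 of 5 were called, against 2% of all tested genes, and with DESeq2 1, Sgcd. At an unadjusted p under 0.05 the count was 5 of 5 by edgeR (16.1% of all tested genes), 4 by DESeq2 (16.9%) and 4 by limma-voom (16.1%). Their median log2 difference was -0.20, and that of all tested genes -0.02. The sign of the difference over both treatments held for each member in all 19 alternative fits of that comparison, among them each other scaling of the libraries.

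Sgca, the alpha subunit, whose loss causes a limb-girdle muscular dystrophy, stood at 94.0 and 86.5 CPM in WT vehicle and at 88.0 and 88.9 CPM in WT ifetroban. It stood at 72.4 and 83.6 CPM in KO vehicle, and KO ifetroban gave 80.3, 74.8 and 66.2 CPM. All KO libraries lay below all WT libraries. The means were 75.4 ± 6.79 CPM in KO (SD, n = 5) and 89.4 ± 3.26 CPM in WT (SD, n = 4), a log2 difference of -0.24 ± 0.09 that did not pass (edgeR, adjusted p = 0.212). It passed with the slope as a term (-0.31, edgeR, adjusted p = 0.0433) and with an offset for transcript length and GC content (-0.36, edgeR, adjusted p = 0.0198), where 3.04% and 5.07% of tested genes passed. Within WT vehicle and KO ifetroban Sgca differed by -0.12 and -0.19 on the log2 scale between positive-slope and negative-slope libraries, the opposite sign to Sgcd. In the same groups Sgce differed by -0.10 and -0.09, Sgcb by 0.08 and 0.05 and Sspn by 0.13 and 0.17. The longest transcripts of Sgcd, Sgce and Sspn are near in length (4453, 4416 and 4512 bases). The part of transcript length in these differences was not tested.

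Sgcb, the beta subunit, which pairs with delta at the core of the subcomplex, stood at 140.5 and 148 CPM in WT vehicle and 152 and 148 CPM in WT ifetroban. Its KO levels were 118 and 129.7 CPM under vehicle and 129, 139 and 129 CPM under ifetroban. The highest KO library (138.57 CPM) lay just below the lowest WT library (140.50 CPM). The log2 difference over both treatments was -0.20 ± 0.08 (edgeR, adjusted p = 0.228), from 129 ± 7.28 CPM in KO (SD, n = 5) and 147 ± 4.76 CPM in WT (SD, n = 4).

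Sspn, sarcospan, stood at 242.63 and 265 CPM in WT vehicle and at 264 CPM in each WT ifetroban library. Its KO levels were 231 and 228 CPM under vehicle, and 210.45, 242.46 and 232 CPM under ifetroban. The groups did not overlap, but the highest KO library and the library labelled WT vehicle replicate 1 were nearly level. The means were 229 ± 11.6 CPM in KO (SD, n = 5) and 259 ± 10.8 CPM in WT (SD, n = 4), and the log2 difference of -0.18 ± 0.08 did not pass (edgeR, adjusted p = 0.294). Among all tested genes 2.38% had every KO library below every WT library, as did Sgca, Sgcb and Sspn among the 5 members.

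Sgce, the epsilon subunit, whose loss from the paternal allele causes a myoclonus dystonia in people, was the member with a higher mean in KO (12.5 ± 1.85 CPM, SD, n = 5) than in WT (10.6 ± 0.504 CPM, SD, n = 4). It stood at 11.2 and 10.5 CPM in WT vehicle, 10.8 and 10.03 CPM in WT ifetroban and 12.8 and 15.3 CPM in KO vehicle. KO ifetroban gave 12.03, 10.1 and 12.5 CPM. Both KO vehicle libraries lay above all WT libraries, and KO ifetroban replicate 2 lay inside the WT range. The log2 difference over both treatments was 0.25 ± 0.11 (edgeR, adjusted p = 0.302), and under vehicle alone 0.37 ± 0.17 (edgeR, adjusted p = 0.641).

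Markers of the labelled tissue were present. The 7 cardiomyocyte markers summed to 34146 to 41407 CPM in WT vehicle, 41429 to 42742 in WT ifetroban, 28548 to 31363 in KO vehicle and 29684 to 38567 in KO ifetroban. The sum was lowest in KO vehicle, and its ranges in WT vehicle and KO ifetroban overlapped. Its largest term, Myh6, stood at 14398 CPM or less in every negative-slope library and at 18560 CPM or more in every positive-slope one. Actn2, Ryr2 and Mybpc3 had their lowest library in KO vehicle, while Myh6, Tnnt2, Tnni3 and Pln did not. The 6 fibroblast markers summed to 663 to 761, 727 to 783, 1242 to 1339 and 932 to 1182 CPM in the same group order. Every KO library had a higher sum than every WT library, with the highest sums in KO vehicle. By gene, this order of genotypes held for Col1a1 and Col3a1, while Dcn, Lum, Pdgfra and Tcf21 overlapped. The highest library was in KO vehicle for Col3a1, Dcn, Lum and Tcf21 and in KO ifetroban for Col1a1 and Pdgfra. The 5 macrophage markers summed to 88.5 to 116 CPM over the WT groups and 121 to 177 CPM over the KO groups. Of these, Cd163 and Mrc1 overlapped between genotypes. The sums of smooth muscle and pericyte markers (7 genes, 875 to 1181 CPM) and of endothelial markers (5 genes, 605 to 853 CPM) overlapped between genotypes. By gene, Cnn1 was at 2.47 CPM or less in every WT library and at 2.54 CPM or more in every KO library. The other genes of both lists overlapped between genotypes. The 5 skeletal muscle markers summed to at most 0.645 CPM in 8 libraries and to 18.4 CPM in 1 KO ifetroban library. No marker was at 0 in every library. Fewer cells of a type and less RNA per cell cannot be told apart in bulk samples, and the part of cell makeup in the member values was not tested.

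**Figure D2:**
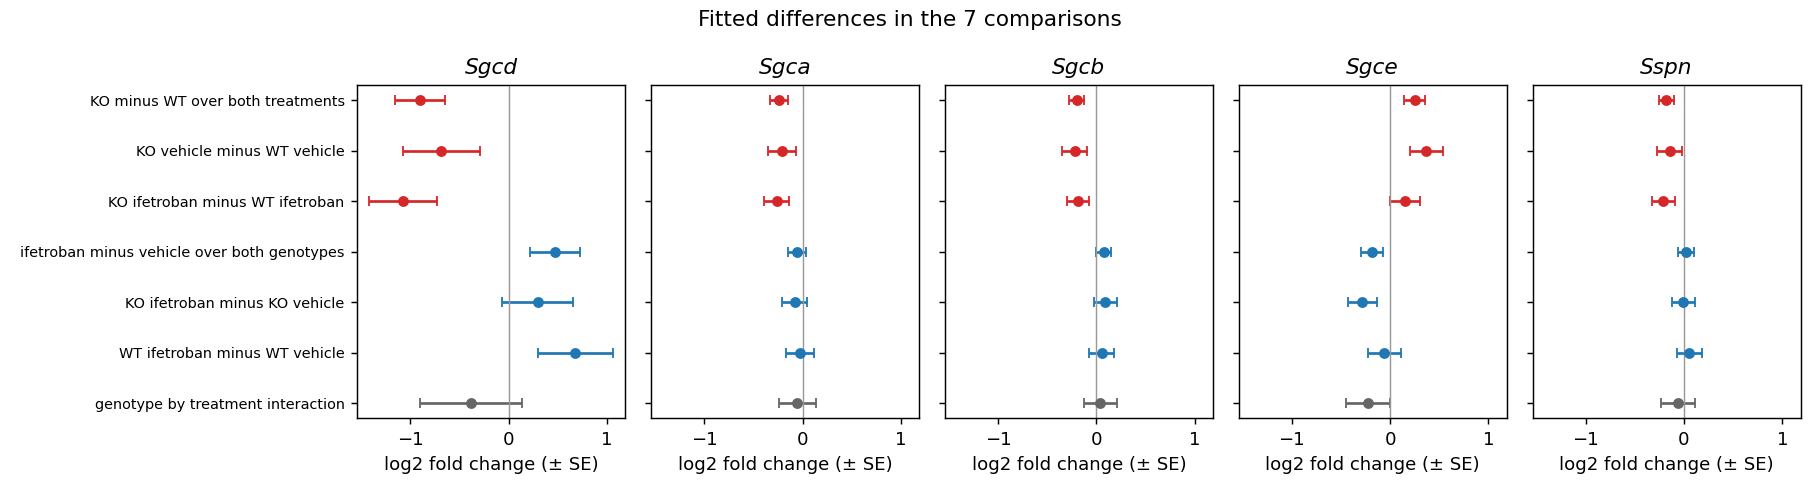
Log2 fold change (horizontal axes) of each member in the 7 comparisons, with bars for ± SE from edgeR and a line at 0 (red for genotype, blue for ifetroban, grey for the interaction). Sgcd has the largest differences and the widest errors (-0.90 ± 0.25 for KO against WT over both treatments), and the ifetroban values of Sgca, Sgcb and Sspn lie close to 0.

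In the comparisons of genotype within 1 treatment no member passed (edgeR, 0 of 5 in each, against 0.0515% of tested genes under vehicle and 0.0386% under ifetroban). Sgca differed by -0.21 ± 0.14 under vehicle and -0.26 ± 0.13 under ifetroban on the log2 scale (edgeR, adjusted p = 0.791 and 0.590). Sgcb differed by -0.22 ± 0.12 and -0.18 ± 0.11, and Sspn by -0.15 ± 0.13 and -0.21 ± 0.11. Under vehicle the Sgca value was -0.12 without KO vehicle replicate 1 and -0.32 without KO vehicle replicate 2, and the Sspn value was -0.08 without WT vehicle replicate 2. At an unadjusted p under 0.05 the count was 0 of 5 under vehicle by edgeR, DESeq2 and limma-voom (7.9%, 7.47% and 7.68% of all tested genes), and 1 of 5 under ifetroban, Sgcd, by each (9.36%, 9% and 9.2%). Under ifetroban every KO library lay below every WT library for 4 of 5 members, Sgcd, Sgca, Sgcb and Sspn, as for 15% of all tested genes. The interaction, which tests whether the genotype difference depends on the drug, ranged over the members from -0.38 ± 0.52 for Sgcd to 0.04 ± 0.17 for Sgcb (edgeR, adjusted p = 1.00 for each, 0% of tested genes called). At an unadjusted p under 0.05 no member showed an interaction by edgeR, DESeq2 or limma-voom (1.92%, 1.5% and 1.96% of all tested genes).

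Ifetroban, which blocks signalling by thromboxane and related prostanoids, moved no member past the threshold in either genotype or over both (edgeR, 0 of 5 and 0% of tested genes called in each). The count at an unadjusted p under 0.05 was also 0 of 5 by edgeR, DESeq2 and limma-voom, against 3.96%, 3.83% and 4.19% of all tested genes in KO, 2.25%, 2% and 2.07% in WT, and 7.96%, 8.59% and 8.03% over both genotypes. In KO the log2 difference was 0.29 ± 0.36 for Sgcd, -0.08 ± 0.13 for Sgca, 0.09 ± 0.11 for Sgcb and -0.01 ± 0.12 for Sspn. Sgce stood in KO vehicle at 14.025 ± 1.74 CPM (SD, n = 2) and in KO ifetroban at 11.5 ± 1.26 CPM (SD, n = 3). All 3 KO ifetroban libraries lay below both KO vehicle libraries, as for 9.76% of all tested genes, and the log2 difference was -0.28 ± 0.15 (edgeR, adjusted p = 0.862). It was -0.15 without KO vehicle replicate 2 and -0.18 without KO ifetroban replicate 2. In WT the Sgcd value was 0.68 ± 0.38 (edgeR, adjusted p = 0.881), and the other 4 members lay between -0.06 and 0.06. Leaving out the library labelled WT vehicle replicate 1 gave an Sgcd value in WT of 0.16, and leaving out WT vehicle replicate 2 gave 1.496. Both values are given without a test, because WT vehicle then holds 1 library.

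Levels of different genes were compared per kilobase of the longest transcript. Over the 9 libraries Sspn stood at 53.7 ± 4.22 CPM per kb (SD), Sgca at 47.35 ± 5.22, Sgcb at 36.2 ± 3.00, Sgcd at 3.20 ± 1.5 and Sgce at 2.65 ± 0.379. The ranges of Sspn (46.6 to 58.7) and Sgca (38.4 to 54.5) overlapped, and so did those of Sgca and Sgcb (31.2 to 40.1), although Sgca was above Sgcb in each library. Sgcd and Sgce, both far below the others, also overlapped, and Sgcd was the higher in 5 of 9 libraries. Per kilobase of coding sequence, Sgcb (142.7) stood above Sgca (70.3) in each library, so the order of these 2 depends on the length used.

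**Figure D3:**
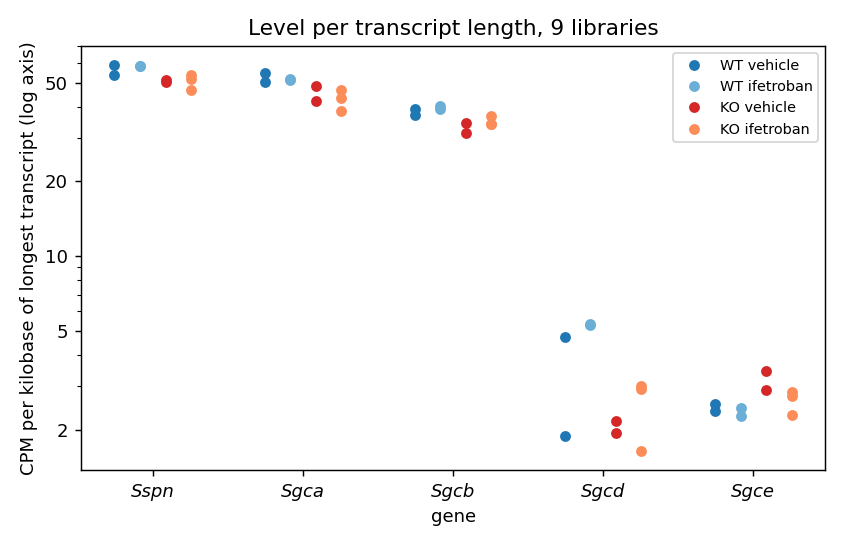
CPM per kilobase of the longest transcript (log axis) of the 5 members in each of the 9 libraries (points), coloured by group. Sspn, Sgca and Sgcb lie between 31.2 and 58.7 CPM per kb, and Sgcd and Sgce between 1.64 and 5.31.

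The spread over the 9 libraries was widest for Sgcd (coefficient of variation 46.9%), then Sgce (14.3%), Sgca (11.0%), Sgcb (8.30%) and Sspn (7.86%). Counts as a percentage of those of Sgcb in the same library need no scaling between libraries. By that measure Sgcd stood at 5.95% and 14.1% in WT vehicle and 15.6% and 15.9% in WT ifetroban. In KO it stood at 8.17% and 6.66% under vehicle and at 5.66%, 9.33% and 10.3% under ifetroban. The library labelled WT vehicle replicate 1 again lay inside the KO range. The same percentages ran from 51.5% to 66.9% for Sgca and from 163% to 196% for Sspn over all libraries. Their means were 60.8% in WT and 58.7% in KO for Sgca, and 175.8% and 178.0% for Sspn. By this measure KO and WT libraries overlapped for both genes. Sgcb itself stood at 87.5% of its WT mean in KO, so a difference shared with Sgcb does not show in these percentages.

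**Figure D4:**
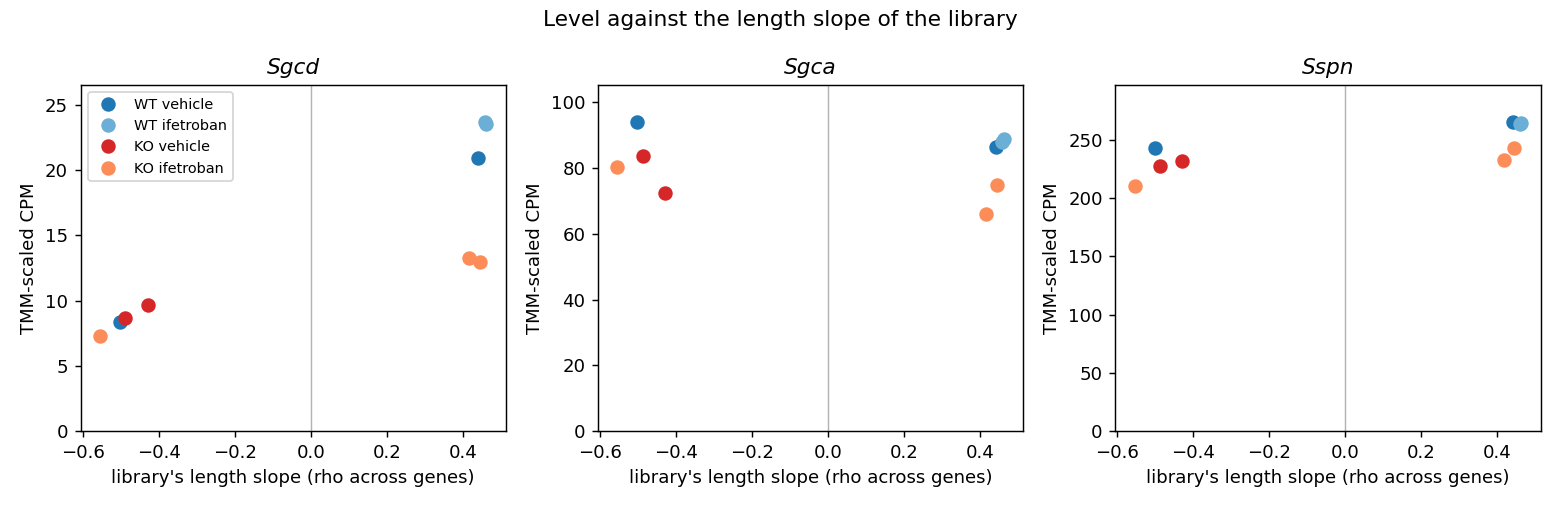
TMM-scaled CPM of Sgcd, Sgca and Sspn (vertical axes, from 0) in each library against the library's rho of deviation with transcript length (horizontal axes), coloured by group. In WT vehicle, Sgcd is at 20.9 CPM in the positive-slope library and 8.36 CPM in the negative-slope one, while Sgca goes from 86.5 to 94.0 CPM and Sspn from 265 to 242.63 CPM.

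Other genes were ranked by Pearson's r of log2 CPM with each member over the 9 libraries, among 10464 genes with a mean of at least 5 CPM. The libraries share the slope on length and the genotype groups, so r is a description. The most alike to Sgcd were Opa1 (r = 0.988), Fto (0.981) and Kcnj12 (0.979). Tcea3 (0.972), Amy1 (0.956) and Acat1 (0.948) were the most alike to Sgca, and Ndufs1 (0.980), Tmc7 (0.973) and Sdha (0.968) to Sgcb. For Sspn they were Camk2a (0.988), Mllt4 (0.979) and Osbpl6 (0.977), and for Sgce Nagk (0.939), Pcgf5 (0.935) and Igfbp7 (0.935). Between members r was highest for Sgcd with Sspn (0.896), and that of Sgce with each of the others was negative.

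Of 15 other genes of the dystrophin-associated complex and its neighbours, 14 were found and tested, and Sgcz was not analysed here. In KO against WT over both treatments 1 rose, 0 fell and 13 did not pass (edgeR, where 2.06% of all tested genes rose and 0.27% fell), with a median log2 difference of -0.16 against -0.02 over all tested genes. The gene that rose was Bgn, biglycan, a matrix proteoglycan, by 0.80 ± 0.15 on the log2 scale (edgeR, adjusted p = 0.0258), with every KO library above every WT library. Its call was lost without WT vehicle replicate 2, WT ifetroban replicate 2, KO vehicle replicate 1 or KO ifetroban replicate 3 (edgeR, adjusted p = 0.0731, 0.102, 0.0837 and 0.0509) and with the slope as a term (0.0818). Dmd, dystrophin, differed by -0.47 ± 0.18 (edgeR, adjusted p = 0.230), Utrn, its homologue utrophin, by -0.33 ± 0.21 (0.477) and Dag1, dystroglycan, by -0.23 ± 0.13 (0.393). KO and WT libraries overlapped for each of these genes. Within WT vehicle, which holds libraries of both slopes, Dmd ran from 108 to 159 CPM, Utrn from 66.2 to 127 and Dag1 from 401 to 526. Within KO ifetroban, which also holds both, they ran from 87.4 to 159, 69.4 to 135 and 362 to 523 CPM. The part of the slope in these differences was not tested. In the other 6 comparisons no gene of the list passed, where at most 0.0515% of all tested genes did. Of 18 genes that glycosylate dystroglycan, which lets it bind laminin, 17 were tested and 0 passed in any comparison. Of all tested genes 2.33% passed in KO against WT over both treatments, and at most 0.0515% in each other comparison. The median log2 difference of the 17 genes over both treatments was -0.09, against -0.02 over all tested genes.

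Around the targeted gene, 116 genes started within 5 Mb of Sgcd and 90 were tested. In KO against WT over both treatments 3 fell and 0 rose, where 0.27% of all tested genes fell and 2.06% rose. Pttg1, securin, fell by 4.76 (edgeR, adjusted p = 6.97e-07), Cyfip2, a regulator of actin assembly, by 2.92 (adjusted p = 3.22e-05) and Gm12167, annotated as antisense, by 2.26 (adjusted p = 0.00436) on the log2 scale. They lie 3470, 583 and 551 kb from Sgcd, on the side of lower coordinates. Pttg1 was at 40.8 CPM or more in every WT library, the one labelled WT vehicle replicate 1 included, and at 2.25 CPM or less in every KO library. The nearest tested genes on either side, Timd4 at 51.9 kb and Gm12178 at 301 kb, did not pass (0.33 ± 0.31 and 0.07 ± 0.24, edgeR, adjusted p = 0.647 and 0.920).

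**Figure D5:**
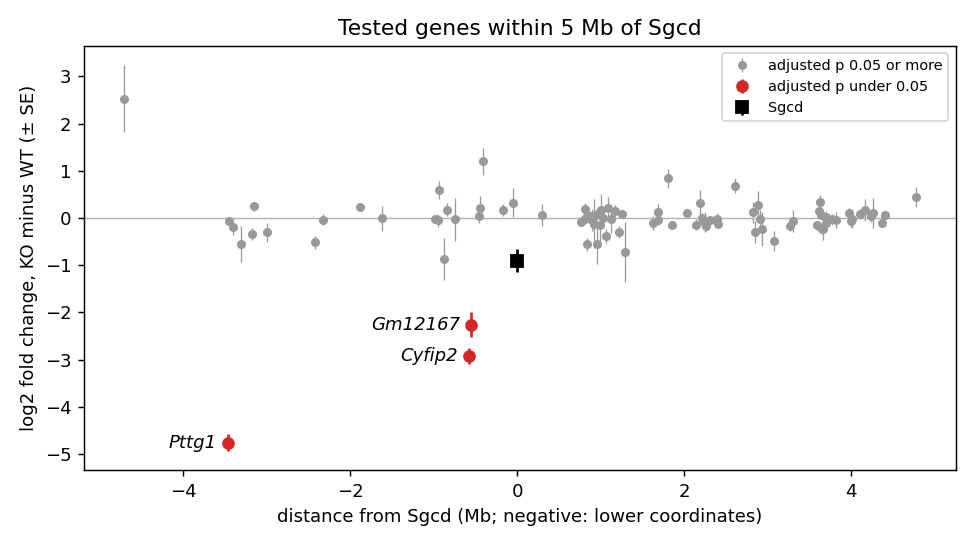
Log2 fold change of KO against WT over both treatments (vertical axis, bars for ± SE) for the tested genes within 5 Mb of Sgcd, by distance from the gene (horizontal axis, Mb, negative for lower coordinates). Pttg1, Cyfip2 and Gm12167 (red) are the 3 genes past the threshold, and Sgcd (black square) lies at -0.90.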

How the data were processed

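The authors deposited expected counts per gene for 9 libraries, of which 28.2% of values are not whole, so they were rounded. The submitters' processing notes name bcl2fastq, STAR, Partek and mm10, without versions or roles; counting rule and strand: not given in the sources used here. Low genes were removed with filterByExpr (minimum count 10 by group), TMM factors scaled the libraries, and edgeR 4.0.16 (R 4.3.3, robust quasi-likelihood test) was fitted to 4 group means and, additively, to genotype plus treatment. Benjamini-Hochberg adjustment ran over the 15549 genes tested, with a threshold of 0.05. SE is the size of the log2 difference over the root of its F statistic. Slopes on length used genes of at least 1 CPM in 2 libraries. 1 was subtracted from deposited ends to match GENCODE M21. DESeq2 1.42.0, limma-voom (3.58.1), other filters, scalings and fits, and each library left out were alternatives. The genes and lists were chosen with earlier results of these data known. Named genes are the members, Dmd, Dag1, Utrn and Sgcz, and 1 further gene that is not reported here, any list or neighbouring gene past the threshold, the nearest tested neighbour on each side and the 3 genes most alike to each member. The fits were tested on simulated counts. Of genes given a log2 change of 1 in either direction, 43% were called for KO against WT under vehicle and 69% over both treatments. For ifetroban against vehicle, 65% were called in KO and 73% over both genotypes. Smaller changes were not simulated, and neither was the slope on length.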

Additional observations from a re-analysis of the deposited data

Results flagged for a closer look

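For each member, the values of the WT, KO, vehicle and ifetroban libraries were searched for a library far from the others, by Dixon's 95% critical value on the gap to the nearest library over the whole range. Chance marks about 1 in 20 sets whose libraries all come from the same population, and 20 sets that share libraries were searched. Each set pools groups and libraries of both slopes, so that rate need not hold here. Sgcd in the 4 vehicle libraries stood out at 20.94 CPM in WT vehicle replicate 2, with a gap of 0.898 of the range. The other 3 vehicle libraries, all of negative slope and 1 of them labelled WT, lay between 8.36 and 9.64 CPM. Sspn in the 4 WT libraries stood out at 242.6 CPM in the library labelled WT vehicle replicate 1, with a gap of 0.943 of the range. The other 3 WT libraries lay within 264 to 265 CPM. Sgcd in the 4 WT libraries, where the same library is the lowest, came just short (0.822). That library is also the WT library of negative slope, and the part of the slope in these values was not tested.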

How the results depend on the processing

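For KO against WT over both treatments, each member kept its sign in all alternatives. Sgcd passed with DESeq2 (-0.90, adjusted p = 0.0116), and leaving out 1 library gave -1.10 (passing, without WT vehicle replicate 1) to -0.70. Sgca passed with the slope as a term (-0.31, edgeR) and with the length and GC offset (-0.36). Genes called numbered 363, against 896 with DESeq2, 789 with the offset and, leaving out 1 library, 51 (without WT ifetroban replicate 2) to 475 (without WT vehicle replicate 1).

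Ifetroban values over both genotypes turned sign for Sgcd (-0.0525 with the slope term), Sgca (0.0373 with the slope term, 0.0248 with the offset) and Sspn (-0.0650 and -0.0602, and -0.00804 to 0.0524 leaving out 1 library). Sgcd under vehicle was -0.03 with the slope term (edgeR, adjusted p = 0.956) and 0.13 in negative-slope libraries, and ran from -1.19 to 0.13 leaving out 1 library. Under ifetroban it passed with the slope term (-0.78) and in positive-slope libraries (-0.83). With KO ifetroban replicate 1 as vehicle, the Sgcd genotype difference was -0.85 under ifetroban and -0.79 under vehicle, and neither passed. For ifetroban in KO, Sgcd was -0.48 with the slope term and -0.32 in negative-slope libraries, and Sgca 0.0231 and 0.0434. With KO ifetroban replicate 1 as vehicle, Sgcd was 0.62 ± 0.30 (edgeR, adjusted p = 0.251), against 0.29 in the main fit. Sspn was 0.00148 with the stricter filter and 0.0896 with that library as vehicle. Leaving out 1 library gave -0.179 to 0.0271 for Sgca and -0.0388 to 0.0494 for Sspn. For ifetroban in WT, Sgca was 0.0514, 0.0759 and 0.0201, and Sspn -0.0194, -0.0554 and -0.0185, with the slope term, the offset and positive-slope libraries. Leaving out 1 library gave -0.0863 to 0.0191 for Sgca and -0.0196 to 0.122 for Sspn. The interaction of Sspn was 0.0337 with KO ifetroban replicate 1 as vehicle. Leaving out 1 library gave interactions of -1.20 to 0.14 for Sgcd, -0.119 to 0.0595 for Sgca, -0.00290 to 0.106 for Sgcb and -0.128 to 0.0180 for Sspn. The cause of these changes was not tested.

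Replicate numbers were not taken as pairs. Deviations of same-numbered libraries from their group means correlated between -0.06 and 0.50. The highest value was between WT vehicle replicate 1 and KO ifetroban replicate 1, both of negative slope. In groups of 2 libraries the deviations mirror each other, so these correlations cannot decide on pairing. With the replicate number as a block, 550 genes were called for KO against WT over both treatments, Sgcd gave -0.94 (edgeR, adjusted p = 0.0705), the interaction of Sgca was 0.0203, and no call on a member changed. Bgn with the slope term gave 0.83 and was not called. Coding length, an alternative chosen after seeing the data in place of RefSeq protein length, which was not run, gave 373.7, 142.7, 70.3, 16.4 and 8.24 CPM per kb for Sspn, Sgcb, Sgca, Sgcd and Sgce. Sgcd rests on 156 to 586 counts per library, and 2 or 3 libraries per group limit all comparisons.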
